A study of Homo sapiens with 24 samples.

Results

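The genes described here are the ErbB receptors and their ligands, 10 genes taken by symbol from every deposited table whatever their values. They are 4 receptors (EGFR, ERBB2, ERBB3 and ERBB4) and 6 ligands (EGF, TGFA, AREG, EREG, HBEGF and BTC), of 23946 genes listed in all tables together. All 10 are listed in the ligand tables, which hold 22227 genes, and 9 in the siRNA tables, which hold 23028 genes and do not list EREG. The RNA came from LNCaP, an androgen-sensitive human prostate cancer line, in 24 samples of 2 experiments. In the ligand experiment, cells kept for 3 days in phenol-red-free medium with charcoal-stripped serum, which is low in steroids, received vehicle, 10 nM DHT (dihydrotestosterone, the active androgen) or 10 μM enzalutamide (MDV in the labels, an antiandrogen), with DHT and enzalutamide for 4 h or 24 h. In the siRNA experiment, cells received a control siRNA (siControl) or siRNA against the transcription factor GATA2 (siGATA2), and then either vehicle or enzalutamide at 25 μM for 24 h. The ligand experiment asks which genes enzalutamide regulates and how these differ from those of DHT, and the siRNA experiment asks how far that response needs GATA2. LNCaP is 1 line, so every group shares its genetic background.

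ErbB receptors are tyrosine kinases of the cell surface. A ligand that binds EGFR, ERBB3 or ERBB4 brings receptors together in pairs, and the kinases then start the RAS to ERK and PI3K to AKT relays. ERBB2 has no known ligand of its own and works as the partner of the other receptors, while the kinase of ERBB3 is weak and ERBB3 signals mainly through ERBB2. The ligands are made as membrane proteins that proteases release, and in prostate cancer cells the pathway is known as a source of growth signals beside androgens.

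Promoter sequences are shown for EGF and HBEGF, the 2 ligands whose response to enzalutamide differed with GATA2 siRNA (below) and for their receptor EGFR. They come from RefSeq (build GRCh38.p14), are given 5′ to 3′ on the gene's own strand, and end just before the annotated start, with the HBEGF window shortened where it met an annotated exon. Capitals mark GATAA, a core of GATA factor motifs, searched on both strands.
EGFR, chr7:55018767-55019016, plus strand: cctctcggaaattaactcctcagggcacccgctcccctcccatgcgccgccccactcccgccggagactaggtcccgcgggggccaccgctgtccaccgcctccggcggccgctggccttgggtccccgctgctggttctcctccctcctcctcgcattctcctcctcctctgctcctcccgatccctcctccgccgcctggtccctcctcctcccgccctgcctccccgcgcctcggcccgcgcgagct
EGF, chr4:109912633-109912882, plus strand: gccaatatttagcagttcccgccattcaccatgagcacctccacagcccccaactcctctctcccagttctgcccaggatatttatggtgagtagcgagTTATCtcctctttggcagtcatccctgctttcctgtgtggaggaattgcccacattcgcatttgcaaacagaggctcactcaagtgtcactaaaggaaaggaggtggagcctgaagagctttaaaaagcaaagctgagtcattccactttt
HBEGF, chr5:140346632-140346853, minus strand: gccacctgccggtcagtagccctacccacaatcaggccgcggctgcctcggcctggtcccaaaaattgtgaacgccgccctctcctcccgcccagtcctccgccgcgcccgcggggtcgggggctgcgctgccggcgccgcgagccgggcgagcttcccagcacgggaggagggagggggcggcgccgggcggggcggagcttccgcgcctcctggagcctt
The EGF window holds 1 GATAA, read on the other strand as TTATC, and the windows of EGFR and HBEGF hold none. Of 35116 RefSeq promoters, GATAA occurs in 20.4% of windows of 250 bases and in 18.6% of windows of 222 bases. RefSeq promoters were matched for 9 of the 10 genes, all except ERBB3, and 2 of these 9 held GATAA. A match is a description of the letters and not a binding site.

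The ligand tables hold estimated counts, here scaled to CPM, counts relative to library size, with TMM factors, and the siRNA tables hold RPKM, reads scaled to gene length in kilobases and to the mapped reads of the library. Total counts per library were 59985287 and 38894876 for vehicle, 53145781 and 53779493 after 4 h of DHT, and 56454994 and 40281721 after 24 h of DHT. They were 42131436 and 49283955 for enzalutamide at 4 h, and 49986088 and 49029465 for enzalutamide at 24 h. A gene with 0 counts in one of these libraries could still lie at up to 0.05 to 0.0771 CPM, the level of 3 counts, by counting error alone. Each ligand group has 2 libraries, where vehicle replicate 1 is the sum of 3 deposited columns with the same replicate number. Of the pairs of libraries within a ligand group, those of enzalutamide at 4 h lay furthest apart (mean chi-square per gene 9.82, against 2.03 to 4.57 in the other groups), and several calls at 4 h below depend on which of them is kept. The sample titles number 4 vehicle replicates instead of 2, and with the 4 columns as separate samples EGFR and ERBB3 were called higher after enzalutamide for 4 h (adjusted p 0.0319 and 0.0163) and ERBB3 lower after DHT for 4 h (adjusted p 0.0362). Each siRNA group has 3 libraries, with about 59000000 to 77000000 mapped reads as inferred from the steps between small RPKM values.

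The labels were checked on known genes. GATA2 stood at 83.8, 77.0 and 86.1 RPKM in siControl cells with vehicle and at 54.3, 53.4 and 46.6 in siGATA2 cells with vehicle. Under enzalutamide it stood at 129, 132 and 128 RPKM in siControl cells and at 60.1, 64.7 and 61.5 in siGATA2 cells. The siGATA2 libraries were lower than the siControl libraries in both treatments, with log2 fold changes of -0.68 and -1.06, so the knockdown was partial. Enzalutamide itself raised GATA2 in siControl cells by 0.65 on the log2 scale (limma, adjusted p 1.17e-05). In the ligand experiment the direction was the opposite: GATA2 stood at 223 and 237 CPM in vehicle, at 184 and 167 CPM after enzalutamide for 4 h and at 201 and 203 CPM after enzalutamide for 24 h, with log2 fold changes of -0.39 (edgeR, adjusted p 0.000198) and -0.18 (adjusted p 0.00892). DHT lowered it as well, by 0.31 at 4 h (adjusted p 0.000855) and by 0.33 at 24 h (adjusted p 7.05e-05). KLK3, the androgen-induced gene for PSA, stood at 259 and 254 CPM in vehicle, at 2095 and 2139 CPM after DHT for 24 h, and at 109 and 111 CPM after enzalutamide for 24 h.

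The luminal prostate markers KLK3, KLK2, HOXB13, FOLH1, TMPRSS2, KRT8 and KRT18 were above 0 in every library. Their levels differed between the compared groups: in vehicle, KLK3 had a mean of 791 RPKM in siControl and 24.1 RPKM in siGATA2 cells, KLK2 had 33.6 and 0.599, and TMPRSS2 had 63.2 and 21.8 RPKM. In the same groups KRT8 had 109 and 195, KRT18 had 116 and 171, FOLH1 had 147 and 199, and HOXB13 had 143 and 135 RPKM, so the list moved in both directions. Of the markers of other cell types, KRT5, COL1A2, DCN, PECAM1, CDH5, PTPRC, CD3E, CD44 and CAV1 were at or near 0. The 4 fibroblast markers summed to 14.9 to 29.1 CPM and 10.0 to 16.6 RPKM, nearly all from COL1A1. The 3 endothelium markers summed to 8.47 to 21.4 CPM and 0.371 to 1.30 RPKM, nearly all from VWF. VWF had a mean of 16.0 CPM in vehicle and 8.73 CPM after enzalutamide for 24 h, and in siControl cells 0.954 RPKM with vehicle and 0.447 RPKM with enzalutamide. After DHT for 24 h the mean was 21.0 CPM for VWF, 15.2 for COL1A1 (23.9 in vehicle), 2.82 for CD68 (1.43 in vehicle) and 0.369 for KRT14 (0.0336 in vehicle). COL1A1 had a mean of 10.1 RPKM in siControl and 14.7 RPKM in siGATA2 cells with vehicle. PDGFRB, also of the fibroblast list, went the other way in the same groups, with means of 0.436 and 0.247 RPKM. The 3 leukocyte markers summed to 1.2 to 2.87 CPM and 3.54 to 12.2 RPKM, nearly all from CD68. The 3 basal epithelium markers summed to at most 0.484 CPM and 0.113 RPKM. CD68 was above 10 RPKM in the 6 siGATA2 libraries and at most 5.32 RPKM in the 6 siControl libraries. The part of COL1A1, PDGFRB, VWF and CD68 in the results below was not tested.

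Per length, EGFR, ERBB2 and ERBB3 stood above the ligands in each siRNA group, by mean RPKM. In siControl cells with vehicle the mean level in RPKM (SD, n = 3) was 61.2 ± 1.77 for ERBB2, 59.2 ± 0.474 for ERBB3 and 13.2 ± 0.417 for EGFR. Among the ligands it was 3.16 ± 0.287 for EGF, 2.60 ± 0.141 for HBEGF, 1.97 ± 0.00989 for TGFA and 0.0951 ± 0.0256 for BTC. ERBB4, the receptor of neuregulins and some EGF-like ligands, had 0.00114 to 0.0230 RPKM over the 12 siRNA libraries and 5 to 16 counts in each ligand library. ERBB2 and ERBB3 overlapped between libraries, and no other neighbours in this order did. The order changed in 2 places between the groups: by mean RPKM, ERBB3 stood above ERBB2 in siControl cells with enzalutamide, and HBEGF stood above EGF in both siGATA2 groups. The distance from EGFR to the highest ligand was smaller in other groups, with means of 12.5 RPKM for EGFR and 7.04 for EGF in siControl cells with enzalutamide, and of 7.67 for EGFR and 5.28 for HBEGF in siGATA2 cells with vehicle. AREG and EREG, which encode the ligands amphiregulin and epiregulin, had 0 to 4 counts in each of the 10 ligand libraries, with 2 libraries at 0 for each. AREG was at 0 in 11 of 12 siRNA libraries and at 0.00631 RPKM in the other. Neither gene was tested in any comparison and no fold change is given for them. The labels name build hg19, which holds a near-identical copy of AREG, and how reads that fit both copies were counted is not stated.

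**Figure D1:**
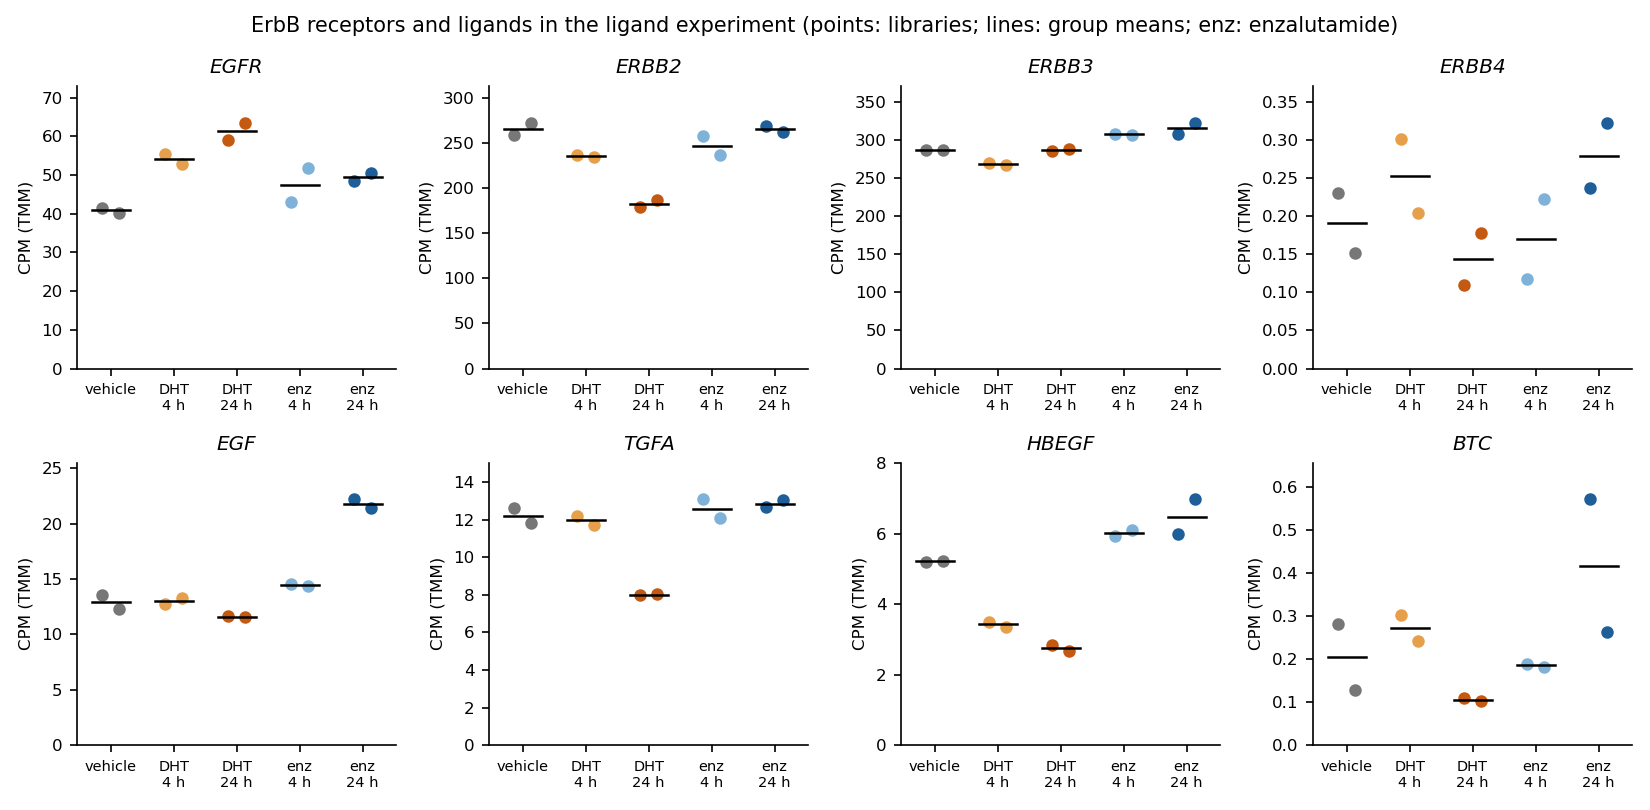
Level of 8 genes in each library of the ligand experiment, in TMM-scaled CPM (y axis, from 0), by group (x axis); points are libraries and lines are group means. EGF stands highest after enzalutamide for 24 h (22.2 and 21.4 CPM), HBEGF and ERBB2 lowest after DHT for 24 h, and ERBB4 and BTC rest on few counts.

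**Figure D2:**
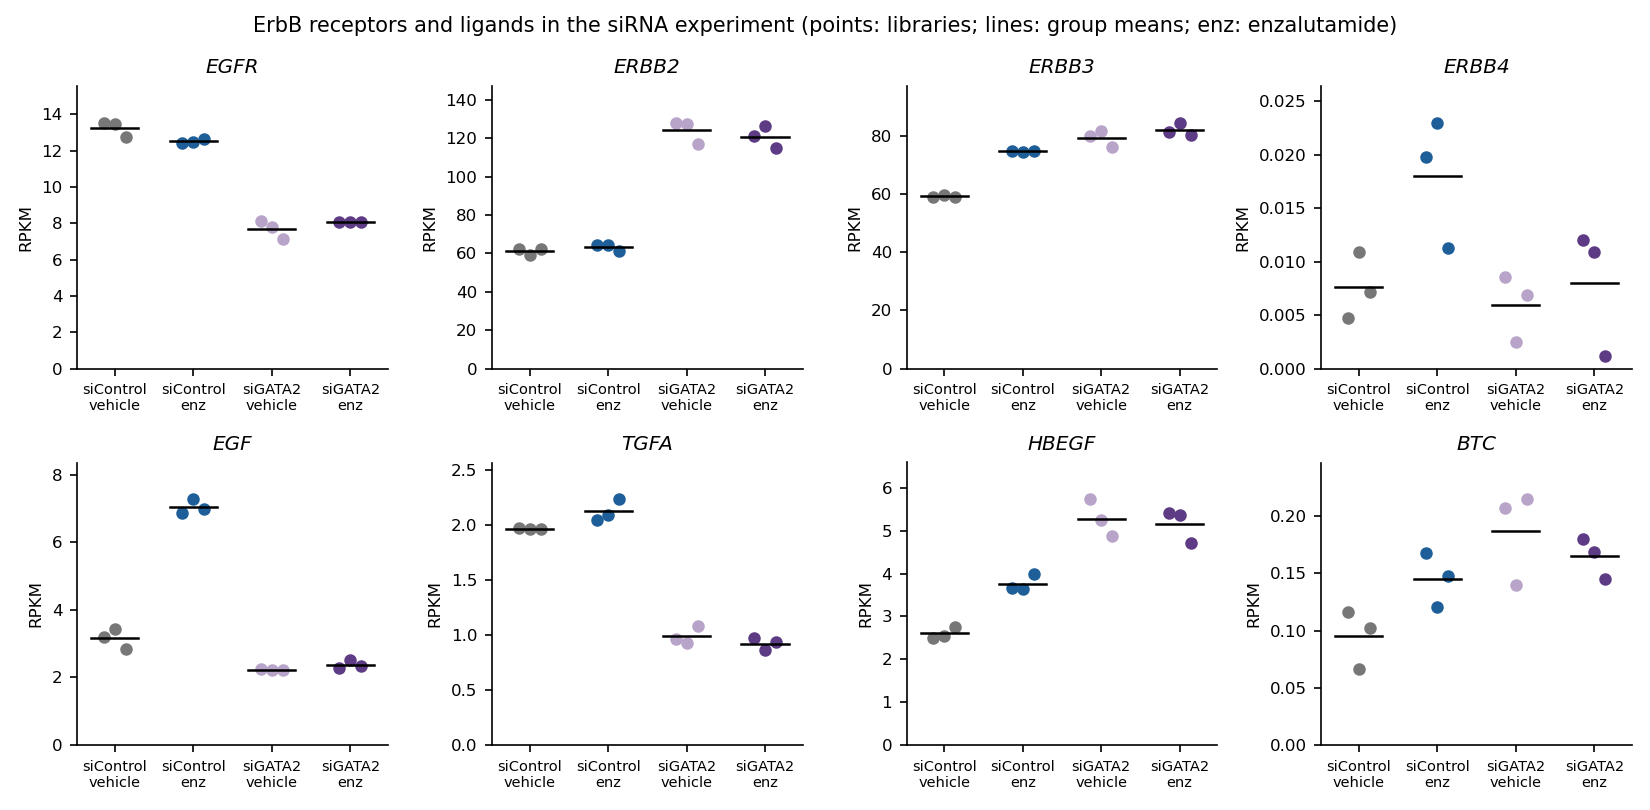
Level of the same 8 genes in each library of the siRNA experiment, in RPKM (y axis, from 0), by group (x axis); points are libraries and lines are group means. ERBB2 and HBEGF stand higher and EGFR and TGFA lower in both siGATA2 groups, and EGF stands highest in siControl cells with enzalutamide (6.86 to 7.27 RPKM).

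EGFR is the receptor that EGF, TGFA, AREG, EREG, HBEGF and BTC bind. It was measured at 41.6 and 40.2 CPM in vehicle, at 55.6 and 53.0 CPM after DHT for 4 h and at 59.1 and 63.5 CPM after DHT for 24 h. After enzalutamide it was measured at 43.1 and 52.0 CPM at 4 h and at 48.6 and 50.5 CPM at 24 h. Every treated library was above both vehicle libraries, the DHT libraries lay highest, and the enzalutamide groups of 4 h and 24 h overlapped. DHT raised EGFR at 4 h with a log2 fold change of 0.41 ± 0.07 (SE, edgeR adjusted p 0.00286) and at 24 h with one of 0.58 ± 0.07 (adjusted p 1.98e-05). In bulk RNA like this, fewer cells of a type and less RNA per cell cannot be told apart. The difference between DHT at 24 h and at 4 h was 0.18 ± 0.07 and missed the threshold of an adjusted p of 0.05 (0.0552). It passed without replicate 1 (0.175) or replicate 2 (0.171) of enzalutamide at 4 h, libraries outside this comparison. It also passed with no filter on low counts (adjusted p 0.00796) and in a fit of the compared groups alone (0.17, adjusted p 0.00795). Enzalutamide at 24 h raised EGFR by 0.28 ± 0.07 on the log2 scale (adjusted p 0.0110). This call was lost without replicate 2 of enzalutamide at 24 h (0.24, adjusted p 0.0973) and without vehicle replicate 2 (0.24, adjusted p 0.0776). At 4 h the difference was 0.22 ± 0.07 (adjusted p 0.0684), where enzalutamide replicate 1 lay close to vehicle. Without that library it was 0.34 and passed the threshold (adjusted p 0.000989), as it did with no filter on low counts (adjusted p 0.00272) and with DESeq2 (adjusted p 0.0490). DHT against enzalutamide at 4 h was not called for EGFR (0.19, adjusted p 0.0990), but was with no filter (adjusted p 0.00448) and without replicate 2 of enzalutamide at 4 h (0.34, adjusted p 0.00121). Without that replicate, enzalutamide at 24 h against 4 h was called too (0.19, adjusted p 0.0334; 0.06 and 0.609 with it).

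In the siRNA experiment EGFR stood at 13.5, 13.4 and 12.8 RPKM in siControl cells with vehicle and at 12.4, 12.5 and 12.6 with enzalutamide. In siGATA2 cells it stood at 8.12, 7.78 and 7.12 RPKM with vehicle and at 8.06, 8.06 and 8.05 with enzalutamide. All 6 siGATA2 libraries were below all 6 siControl libraries. EGFR fell by 0.78 ± 0.04 on the log2 scale with siGATA2 in vehicle (limma adjusted p 7.59e-08) and by 0.63 ± 0.04 under enzalutamide (adjusted p 3.93e-07). The response to 25 μM enzalutamide for 24 h in siControl cells was -0.08 ± 0.04 and missed the threshold (adjusted p 0.152), and without siGATA2 vehicle replicate 3 the same difference was called (adjusted p 0.0362). The difference between the responses was 0.15 (adjusted p 0.0884), and 0.19 and called without siGATA2 vehicle replicate 1 (adjusted p 0.0277). The ligand experiment gave 0.28 for 10 μM and 24 h, and since dose, transfection and library set differ between the experiments these values were not tested against each other. An annotated antisense gene, EGFR-AS1, overlaps EGFR. The paper names a directional library kit, which keeps the strand of the RNA, and does not state whether reads were counted by strand.

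ERBB2, the receptor without a ligand of its own, was measured at 259 and 272 CPM in vehicle, at 237 and 234 CPM after DHT for 4 h and at 179 and 186 CPM after DHT for 24 h. With enzalutamide it was measured at 257 and 236 CPM at 4 h and at 268 and 262 CPM at 24 h. Both DHT groups lay below vehicle, the later one further, and enzalutamide at 24 h overlapped with vehicle. DHT lowered ERBB2 at 24 h with a log2 fold change of -0.54 ± 0.04 (adjusted p 3.35e-07), and from 4 h to 24 h of DHT it fell by 0.37 ± 0.04 (adjusted p 1.35e-05). At 4 h of DHT the log2 fold change was -0.17 ± 0.04 (adjusted p 0.0261), the smallest of its called changes in this experiment. That call was lost without DHT 4 h replicate 1 (-0.18, adjusted p 0.154), DHT 4 h replicate 2 (-0.16, adjusted p 0.212) or vehicle replicate 2 (-0.13, adjusted p 0.237). It was also lost without either replicate of enzalutamide at 24 h (-0.17 in both fits), libraries outside this comparison, and with 1 of the vehicle runs alone (adjusted p 0.0531). The difference between enzalutamide and vehicle was -0.11 ± 0.04 at 4 h (adjusted p 0.130). Without replicate 1 of enzalutamide at 4 h it was -0.17 and passed the threshold (adjusted p 0.0115), and so did enzalutamide at 24 h against 4 h (0.17, adjusted p 0.00858; 0.10 and 0.0965 with it).

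In siControl cells ERBB2 stood at 62.2, 59.2 and 62.3 RPKM with vehicle and at 64.3, 64.2 and 61.4 with enzalutamide. In siGATA2 cells it stood at 128, 127 and 117 RPKM with vehicle and at 121, 126 and 115 with enzalutamide. The siGATA2 libraries all lay above the siControl libraries, and vehicle and enzalutamide overlapped within each siRNA. ERBB2 rose with siGATA2 by 1.02 ± 0.04 on the log2 scale in vehicle (adjusted p 1.61e-08) and by 0.93 ± 0.04 under enzalutamide (adjusted p 3.06e-08). The annotated genes PGAP3 and MIEN1 overlap ERBB2 on the opposite strand.

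ERBB3, the receptor that pairs with ERBB2, was measured at 286 and 287 CPM in vehicle, at 269 and 267 CPM after DHT for 4 h and at 285 and 288 CPM after DHT for 24 h. After enzalutamide it was measured at 308 and 307 CPM at 4 h and at 308 and 322 CPM at 24 h. The enzalutamide libraries lay above vehicle and the DHT libraries of 4 h below it, while DHT at 24 h overlapped with vehicle. These differences are small: enzalutamide raised ERBB3 at 24 h by 0.14 ± 0.03 on the log2 scale (adjusted p 0.00588), and at 4 h the difference of 0.10 ± 0.03 missed the threshold (adjusted p 0.0559), which it passed with crossed replicate numbers for enzalutamide at 4 h (adjusted p 0.0372) and with vehicle replicate 1 as its ZC2 run (adjusted p 0.0497). The 24 h call was lost without replicate 2 of enzalutamide at 24 h (0.09, adjusted p 0.140). The direct comparison of DHT with enzalutamide gave -0.20 ± 0.03 at 4 h (adjusted p 0.000899) and -0.14 ± 0.03 at 24 h (adjusted p 0.00231), and the latter was lost without replicate 2 of enzalutamide at 24 h (-0.09, adjusted p 0.0753). From 4 h to 24 h of DHT the log2 fold change was 0.10 ± 0.03 (adjusted p 0.0257), a call lost without DHT 24 h replicate 1 (adjusted p 0.0731), DHT 24 h replicate 2 (adjusted p 0.134), DHT 4 h replicate 1 (adjusted p 0.104) or DHT 4 h replicate 2 (adjusted p 0.150), and with no filter on low counts (adjusted p 0.0732).

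In siControl cells ERBB3 stood at 59.1, 59.7 and 58.8 RPKM with vehicle and at 74.7, 74.5 and 74.7 with enzalutamide. In siGATA2 cells it stood at 80.0, 81.8 and 76.2 RPKM with vehicle and at 81.2, 84.5 and 80.2 with enzalutamide. The siControl groups did not overlap, and both siGATA2 groups lay above them and overlapped with each other. Enzalutamide raised ERBB3 in siControl cells by 0.33 ± 0.03 on the log2 scale (adjusted p 7.31e-06), and in siGATA2 cells the difference was 0.05 ± 0.03 (adjusted p 0.594). The test of the difference between these responses gave -0.29 ± 0.04 (adjusted p 0.000601). The effect of siGATA2 was 0.42 ± 0.03 in vehicle (adjusted p 4.06e-07) and 0.13 ± 0.03 under enzalutamide (adjusted p 0.00199). ERBB4 was not called in any comparison. Without siControl enzalutamide replicate 3 it was called for enzalutamide in siControl cells (0.17, adjusted p 0.0382) and for siGATA2 under enzalutamide (-0.17, adjusted p 0.0317), at levels below the pseudocount.

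EGF, the ligand that gave the family its name, was measured at 13.6 and 12.3 CPM in vehicle, at 14.6 and 14.3 CPM after enzalutamide for 4 h and at 22.2 and 21.4 CPM after enzalutamide for 24 h. After DHT it was measured at 12.7 and 13.3 CPM at 4 h and at 11.6 and 11.6 CPM at 24 h. Enzalutamide at 24 h stood apart from all other groups, DHT at 4 h overlapped with vehicle, and DHT at 24 h lay just below vehicle. Enzalutamide raised EGF at 24 h by 0.75 ± 0.06 on the log2 scale (adjusted p 1.08e-06), and the difference at 4 h was 0.15 ± 0.07 (adjusted p 0.156). Between 24 h and 4 h of enzalutamide EGF rose by 0.59 ± 0.06 (adjusted p 1.44e-05). In DHT at 24 h the difference from vehicle was -0.16 ± 0.07 and missed the threshold (adjusted p 0.0612). Without vehicle replicate 2 it was -0.22 and passed (adjusted p 0.0285). DHT at 24 h against 4 h gave -0.16 ± 0.07 for EGF (adjusted p 0.0589), which passed in 6 of 21 alternative settings: within the name prefixes (-0.34, adjusted p 0.0164), in a fit of the compared groups alone (adjusted p 0.0465), with vehicle replicate 1 as its ZC1 or ZC2 run (adjusted p 0.0425 and 0.0423), and without vehicle replicate 1 or 2 (adjusted p 0.0440 and 0.0435). The 4 h enzalutamide difference passed with the ZC1 or ZC2 run (0.22 and 0.23, adjusted p 0.0455 and 0.0430).

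The columns of the ligand tables carry 1 of 3 name prefixes (ZC1, ZC2 and ZC3), whose meaning is not stated, and each of the enzalutamide groups carries a single prefix, ZC2 at 4 h and ZC3 at 24 h. The vehicle columns of replicate 1 held 275 EGF counts of 21717301 under ZC1, 234 of 18778840 under ZC2 and 312 of 19489146 under ZC3, so the vehicle share of EGF was highest under the prefix of the 24 h enzalutamide libraries. Against the vehicle column of its own prefix, the EGF response to enzalutamide at 24 h was 0.46 ± 0.08 (adjusted p 0.00168). The response at 24 h minus that at 4 h, each against its own prefix, was 0.24 ± 0.12 and missed the threshold (adjusted p 0.352). These fits have 1 vehicle column per enzalutamide group, which is assumed to vary like the other columns.

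In siControl cells EGF stood at 3.19, 3.43 and 2.86 RPKM with vehicle and at 6.86, 7.27 and 6.99 with 25 μM enzalutamide. In siGATA2 cells it stood at 2.26, 2.21 and 2.22 RPKM with vehicle and at 2.27, 2.53 and 2.33 with enzalutamide. None of these 4 groups overlapped, the siControl cells with enzalutamide lay far above the rest, and the siGATA2 groups lay close together at the bottom. Enzalutamide raised EGF in siControl cells by 1.14 ± 0.06 on the log2 scale, a fold of 2.20 (adjusted p 4.02e-07), in 3 of 3 libraries. In siGATA2 cells the difference was 0.08 ± 0.06 (adjusted p 0.699), and the difference between the responses was -1.05 ± 0.09 (adjusted p 2.66e-05). EGF fell with siGATA2 by 0.48 ± 0.06 in vehicle (adjusted p 7.83e-05) and by 1.53 ± 0.06 under enzalutamide (adjusted p 1.28e-08). Of the promoters printed above, that of EGF is the one with a GATAA, and no measurement of GATA2 binding enters here.

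TGFA, a ligand of EGFR, was measured at 12.6 and 11.8 CPM in vehicle, at 12.2 and 11.7 CPM after DHT for 4 h and at 8.00 and 8.03 CPM after DHT for 24 h. With enzalutamide it was measured at 13.1 and 12.1 CPM at 4 h and at 12.7 and 13.05 CPM at 24 h. The 24 h DHT libraries lay below all others, and the other groups lay close together. TGFA fell after 24 h of DHT by 0.62 ± 0.07 on the log2 scale (adjusted p 1.37e-05), and it fell by 0.58 ± 0.07 from 4 h to 24 h of DHT (adjusted p 2.33e-05). In siControl cells it stood at 1.98, 1.96 and 1.96 RPKM with vehicle and at 2.05, 2.09 and 2.23 with enzalutamide. In siGATA2 cells it stood at 0.967, 0.929 and 1.08 RPKM with vehicle and at 0.970, 0.862 and 0.936 with enzalutamide. The siGATA2 groups lay below the siControl groups and overlapped with each other. TGFA fell with siGATA2 by 0.92 ± 0.07 in vehicle (adjusted p 9.58e-07) and by 1.12 ± 0.07 under enzalutamide (adjusted p 2.17e-07). With a pseudocount of 1 in place of 0.1 these changes were -0.57 and -0.70, and both were still called.

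HBEGF, a heparin-binding ligand of EGFR and ERBB4, was measured at 5.20 and 5.23 CPM in vehicle, at 3.51 and 3.36 CPM after DHT for 4 h and at 2.85 and 2.68 CPM after DHT for 24 h. After enzalutamide it was measured at 5.93 and 6.10 CPM at 4 h and at 5.99 and 6.98 CPM at 24 h. The DHT groups lay below vehicle and the enzalutamide groups above it, with no overlap except between the enzalutamide groups. DHT lowered HBEGF with log2 fold changes of -0.60 ± 0.11 at 4 h (adjusted p 0.00367) and -0.91 ± 0.12 at 24 h (adjusted p 2.45e-05). The change from 4 h to 24 h of DHT was -0.31 ± 0.12 (adjusted p 0.0484), a call lost in 14 of 21 alternative settings. Leaving out DHT 24 h replicate 1 (adjusted p 0.0830), DHT 24 h replicate 2 (adjusted p 0.158), DHT 4 h replicate 1 (adjusted p 0.169), DHT 4 h replicate 2 (adjusted p 0.0952), vehicle replicate 1 (adjusted p 0.0540) or vehicle replicate 2 (adjusted p 0.0531) each ended it, and so did the replicate block (adjusted p 0.0613), in which libraries with the same replicate number are paired. Enzalutamide at 24 h gave 0.31 ± 0.10 (adjusted p 0.0335), and with DESeq2 this was 0.30 and not called (adjusted p 0.175). That call was also lost without replicate 2 of enzalutamide at 24 h (0.19, adjusted p 0.319), vehicle replicate 1 (adjusted p 0.127), vehicle replicate 2 (adjusted p 0.10), DHT 4 h replicate 1 (adjusted p 0.0505) or DHT 4 h replicate 2 (adjusted p 0.0504), and with vehicle replicate 1 as its ZC2 or ZC3 run (adjusted p 0.0618 and 0.0691). DHT against enzalutamide at 24 h gave -1.22 ± 0.11 (adjusted p 6.03e-07), the direct test between the treatments.

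In siControl cells HBEGF stood at 2.501, 2.54 and 2.76 RPKM with vehicle and at 3.65, 3.63 and 4.00 with enzalutamide. The siGATA2 cells had 5.73, 5.24 and 4.87 RPKM with vehicle and 5.42, 5.36 and 4.70 with enzalutamide. The siGATA2 groups lay above both siControl groups and overlapped with each other, and the siControl groups did not overlap. Enzalutamide raised HBEGF in siControl cells by 0.52 ± 0.07 on the log2 scale (adjusted p 0.000278), with a difference of -0.03 ± 0.07 in siGATA2 cells (adjusted p 0.939). The difference between these responses was -0.55 ± 0.11 (adjusted p 0.00381). With siGATA2 HBEGF rose by 0.99 ± 0.07 in vehicle (adjusted p 9.40e-07) and by 0.44 ± 0.07 under enzalutamide (adjusted p 0.000420).

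BTC, a ligand of EGFR and ERBB4, had few reads: 17 and 5 counts in vehicle, 16 and 13 after DHT for 4 h, 6 and 4 after DHT for 24 h, 8 and 9 after enzalutamide for 4 h, and 29 and 13 after enzalutamide for 24 h. The libraries of DHT at 24 h were the lowest in CPM and replicate 1 of enzalutamide at 24 h the highest. DHT against enzalutamide at 24 h was called (log2 fold change -1.95 ± 0.52, adjusted p 0.00479), and it was lost without replicate 1 of enzalutamide at 24 h (-1.27, adjusted p 0.0912). From 4 h to 24 h of DHT, BTC was not called in the main fit, and it was called with the replicate block (-1.38, adjusted p 0.0319), with a fit of the compared groups alone (adjusted p 0.0229), with no filter on low counts (adjusted p 0.0365), with vehicle replicate 1 as its ZC2 run (adjusted p 0.0459) and without either replicate of enzalutamide at 24 h (adjusted p 0.0438 and 0.0423). Against vehicle neither treatment was called at 24 h, while without replicate 2 of enzalutamide at 24 h the enzalutamide difference was 1.37 and called (adjusted p 0.0424), and it was called with vehicle replicate 1 as its ZC2 run (1.59, adjusted p 0.0335). Enzalutamide at 24 h against 4 h (1.17, adjusted p 0.0833) was called with no filter on low counts (adjusted p 0.0483) and without replicate 2 of enzalutamide at 24 h (1.61, adjusted p 0.0351). In RPKM, BTC stood at 0.116, 0.0666 and 0.103 in siControl cells with vehicle and at 0.168, 0.120 and 0.148 with enzalutamide. The siGATA2 cells had 0.207, 0.140 and 0.215 RPKM with vehicle and 0.180, 0.169 and 0.145 with enzalutamide. The siGATA2 libraries with vehicle lay above the siControl libraries with vehicle, near the pseudocount of 0.1 RPKM. The log2 fold change with siGATA2 in vehicle was 0.56 ± 0.13 (adjusted p 0.00433), and it was 0.12 with a pseudocount of 1 and 0.92 with one of 0.01. For enzalutamide in siControl cells BTC was not called in the main fit, but was with the replicate block (0.33, adjusted p 0.0260) and without siGATA2 vehicle replicate 2 (0.33, adjusted p 0.0390). Without that library the difference between the responses of siGATA2 and siControl cells was called as well (-0.57, adjusted p 0.0412; -0.44 and 0.116 with it).

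Other calls were also lost when vehicle was limited to the columns with the name prefix of the treated libraries. For enzalutamide at 24 h, EGFR was then at 0.28 ± 0.10 (adjusted p 0.0696) and ERBB3 at 0.12 ± 0.04 (adjusted p 0.0624). HBEGF was at 0.25 ± 0.15 for enzalutamide at 24 h (adjusted p 0.284), and at -0.74 ± 0.20 for DHT against enzalutamide at 4 h (adjusted p 0.0525). BTC was at -1.19 ± 0.75 for DHT against enzalutamide at 24 h (adjusted p 0.201). From 4 h to 24 h of DHT, ERBB3 (0.10 ± 0.05, adjusted p 0.133) and HBEGF (-0.39 ± 0.18, adjusted p 0.111) were not called, with changes no smaller than in the main fit and larger standard errors. The changes of EGFR, ERBB2 and HBEGF after DHT at both times, and of TGFA after DHT at 24 h, were called within the prefixes too, and so was EGF after DHT for 24 h (-0.27, adjusted p 0.00741).

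**Figure D3:**
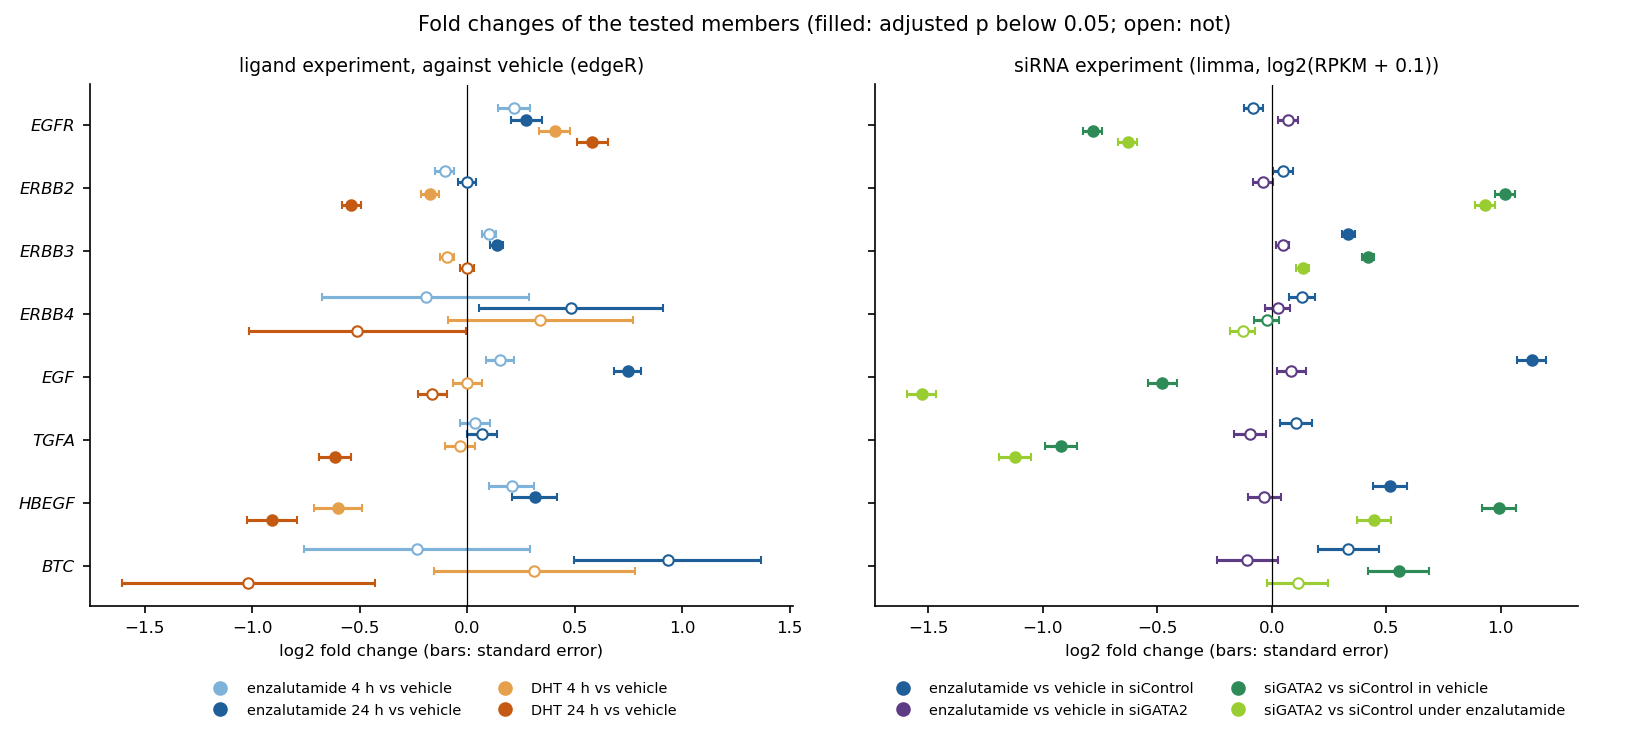
Log2 fold changes (x axis) of the 8 tested genes (y axis), with bars for the standard error; filled points have an adjusted p below 0.05 and open points do not. On the left, ERBB2, HBEGF and TGFA lie left of 0 and EGFR right of 0 after DHT for 24 h, and on the right the EGF response to enzalutamide is 1.14 in siControl cells and 0.08 in siGATA2 cells.

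Counted over the members, 8 of the 10 were tested in each experiment, among 15555 tested genes in the ligand experiment and 20369 in the siRNA experiment. Both DHT groups and both enzalutamide groups are compared with the same vehicle libraries. After enzalutamide for 4 h, 0 members were called by edgeR in either direction, beside 6.95% of all tested genes higher and 6.68% lower. At an unadjusted p of 0.05 there were 4 members (EGFR, ERBB2, ERBB3 and EGF), and DESeq2 called 1 (EGFR). The all-gene calls at 4 h were 1081 higher and 1039 lower of 15555 genes. With the compared groups alone they were 408 and 382 of 15035, and they also moved when 1 library was left out. After enzalutamide for 24 h, 4 of 8 members were called higher (EGF, EGFR, ERBB3 and HBEGF), beside 16.4% of all genes. None was called lower by edgeR, beside 17.0% of all genes, and the 4 members with an unadjusted p below 0.05 were those called higher. The median log2 fold change of the tested members at 24 h was 0.29, against 0.01 over all genes, and at 4 h it was 0.07 against 0.00.

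DHT for 4 h had 1 member called higher (EGFR), beside 4.66% of all genes, and 2 called lower (ERBB2 and HBEGF), beside 2.11%. For DHT at 24 h, 1 member was called higher (EGFR), beside 26.9% of all genes, and 3 lower (ERBB2, HBEGF and TGFA), beside 23.1%. The median of the members at 24 h was -0.53, against 0.00 over all genes, and at 4 h it was -0.02 against -0.01. Between 24 h and 4 h of enzalutamide, 1 member was called higher (EGF), beside 11.7% of all genes. There edgeR called 0 members lower, beside 12.9% of all genes, and the 3 members with an unadjusted p below 0.05 (ERBB2, EGF and BTC) were all higher at 24 h. The median was 0.11, against 0.01 over all genes. Between 24 h and 4 h of DHT, 1 member was called higher (ERBB3), beside 26.3% of all genes, and 3 lower (ERBB2, HBEGF and TGFA), beside 23.5%, with a median of -0.34 against 0.00. As vehicle has no time label, both comparisons between times also hold whatever differs between 4 h and 24 h in culture.

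DHT against enzalutamide at 4 h had 0 members called higher by edgeR, beside 8.49% of all genes, where 1 (EGFR) of the 4 members with an unadjusted p below 0.05 was higher. It had 2 called lower (ERBB3 and HBEGF), beside 7.28%, with a median of -0.07 against -0.01. At 24 h, 1 member was called higher under DHT (EGFR), beside 31.3% of all genes, and 6 lower (ERBB2, ERBB3, EGF, TGFA, HBEGF and BTC), beside 33.6%. The median there was -0.80 against -0.03. As 1 of 8 tested members is 12.5%, the single higher calls of the 24 h DHT comparisons are not read as a result about the members. The 6 lower calls against enzalutamide are 75% of the tested members, beside 33.6% of all genes. That of BTC rests on few counts and did not hold without replicate 1 of enzalutamide at 24 h (-1.27).

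In the siRNA experiment, enzalutamide in siControl cells had 3 members called higher (EGF, ERBB3 and HBEGF), beside 17.7% of all genes. limma called 0 members lower there, beside 24.4% of all genes, and the 5 members with an unadjusted p below 0.05 also include ERBB4 and BTC, both higher. The median was 0.23, against -0.02 over all genes. Enzalutamide in siGATA2 cells had 0 members called by limma in either direction and 0 at an unadjusted p of 0.05, beside 0.221% of all genes higher and 0.191% lower. A count of 0 is near this background and is not a result about the members, and the median was 0.00 against -0.01. siGATA2 in vehicle had 4 members called higher (ERBB2, ERBB3, HBEGF and BTC), beside 24.2% of all genes, and 3 lower (EGFR, EGF and TGFA), beside 31.4%, with a median of 0.20 against -0.03. Under enzalutamide, 3 were higher with siGATA2 (ERBB2, ERBB3 and HBEGF), beside 26.3%, and 3 lower (EGFR, EGF and TGFA), beside 28.1%, with a median of -0.01 against 0.00. In the test of whether siGATA2 changed the response to enzalutamide, limma called 0 members higher, beside 15.0% of all genes, where 1 (EGFR) of the 5 members with an unadjusted p below 0.05 was higher. It called 3 lower (EGF, ERBB3 and HBEGF), beside 10.8%, with a median of -0.24 against 0.01. These siRNA comparisons share libraries, so their counts are not independent of each other.

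Other genes of the pathway were followed in 5 lists with 56 genes, of which 50 were tested in the ligand experiment and 54 in the siRNA experiment. Each percentage is followed by that of all tested genes in the same comparison. After enzalutamide for 4 h, 11 of 50 were called higher (22%, all genes 6.95%) and 3 lower (6%, all genes 6.68%), and at 24 h 13 were higher (26%, all genes 16.4%) and 6 lower (12%, all genes 17.0%). After DHT for 4 h, 6 were higher (12%, all genes 4.66%) and 1 lower (2%, all genes 2.11%), and at 24 h 14 were higher (28%, all genes 26.9%) and 12 lower (24%, all genes 23.1%). Between 24 h and 4 h there were 3 higher (6%, all genes 11.7%) and 4 lower (8%, all genes 12.9%) for enzalutamide, and 12 higher (24%, all genes 26.3%) and 14 lower (28%, all genes 23.5%) for DHT. DHT against enzalutamide had 6 higher (12%, all genes 8.49%) and 6 lower (12%, all genes 7.28%) at 4 h, and 13 higher (26%, all genes 31.3%) and 19 lower (38%, all genes 33.6%) at 24 h. In siControl cells enzalutamide had 19 of 54 higher (35.2%, all genes 17.7%) and 13 lower (24.1%, all genes 24.4%). In siGATA2 cells it had 1 higher (SPRY4, 1.85%, all genes 0.221%) and, by limma, 0 lower (all genes 0.191%). siGATA2 had 24 higher (44.4%, all genes 24.2%) and 20 lower (37%, all genes 31.4%) in vehicle, and 21 higher (38.9%, all genes 26.3%) and 21 lower (38.9%, all genes 28.1%) under enzalutamide. The response to enzalutamide differed between siGATA2 and siControl cells for 23 genes, 10 with a positive (18.5%, all genes 15.0%) and 13 with a negative difference (24.1%, all genes 10.8%).

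Pooled over the 5 lists, the median log2 fold change was 0.03 against 0.01 over all genes for enzalutamide at 24 h, and -0.03 against 0.00 for DHT at 24 h. Single lists lay further from all genes. With siGATA2 in vehicle the shedding proteases and cofactors had a median of 0.53, against -0.03 over all genes. The other ligands, with 2 of 5 tested in the ligand experiment, had a median of 0.51 against 0.01 for enzalutamide at 24 h and of -0.69 against -0.03 for DHT against enzalutamide at 24 h. For enzalutamide in siControl cells, with 3 of them tested, their median was -0.22 against -0.02, the opposite direction. The 1 gene of this list called there, NRG3, was higher (0.34, limma adjusted p 0.0171), at levels near the pseudocount of 0.1 RPKM. It stood at 0.134, 0.173 and 0.128 RPKM with enzalutamide, against 0.0914, 0.0962 and 0.0891 with vehicle. It was also higher after enzalutamide for 24 h in the ligand experiment (0.52, edgeR adjusted p 0.000813). Medians of so few genes rest on single genes.

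**Figure D4:**
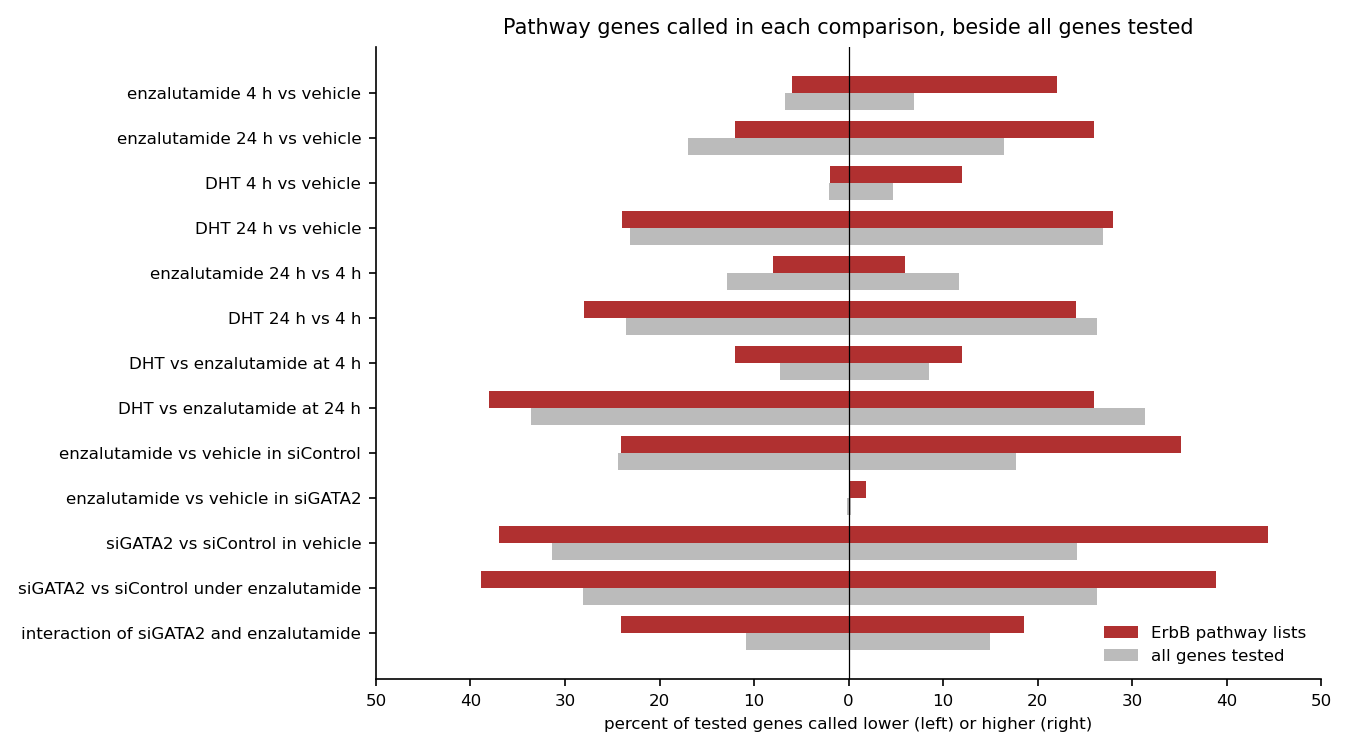
Percent of tested genes called lower (left of 0) or higher (right of 0) in each comparison (y axis), for the pathway lists and for all genes tested. The lists stand at 22% higher against 6.95% of all genes after enzalutamide for 4 h, and both bars are near 0 for enzalutamide in siGATA2 cells.

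Among the other ligands, NRG3, a neuregulin, was measured at 7.90 and 7.95 CPM in vehicle, 2.87 and 3.72 CPM after DHT for 24 h, and 11.6 and 11.1 CPM after enzalutamide for 24 h. The DHT libraries lay below and the enzalutamide libraries above vehicle, with log2 fold changes of -1.29 ± 0.11 (adjusted p 5.85e-07) and 0.52 ± 0.09 (adjusted p 0.000813). Of these 5 genes the ligand experiment tested 1 other, NRG4, which was called higher after DHT for 24 h, at 1.41 and 0.918 CPM against 0.578 and 0.685 CPM in vehicle (0.93 ± 0.31, adjusted p 0.0240). In the list of shedding proteases and cofactors, ADAM10, the protease that releases EGF and BTC, stood at 44.7, 44.9 and 42.9 RPKM in siControl cells with vehicle and at 87.5, 90.6 and 91.8 in siGATA2 cells with vehicle. RHBDF1, which brings the protease ADAM17 to the surface, stood at 11.6, 10.1 and 10.6 RPKM and at 24.5, 24.0 and 22.9 RPKM in the same groups. The siGATA2 libraries lay above the siControl libraries for both genes, with log2 fold changes of 1.03 ± 0.03 (adjusted p 1.53e-09) for ADAM10 and 1.14 ± 0.06 (adjusted p 3.81e-08) for RHBDF1. Of the 8 genes of this list, 5 were called higher and 3 lower in that comparison, beside 24.2% and 31.4% of all genes. ADAM19 fell by 0.91 ± 0.13 (adjusted p 0.000138), from 0.385, 0.327 and 0.336 RPKM to 0.161, 0.125 and 0.133. RHBDF2, a relative of RHBDF1, fell by 0.55 ± 0.06 (adjusted p 2.08e-05), from 7.26, 6.45 and 6.78 RPKM to 4.71, 4.85 and 4.38. In the ligand experiment RHBDF2 was higher after DHT for 24 h at 13 and 14.1 CPM, against 8.57 and 8.5 CPM in vehicle (0.66 ± 0.08, adjusted p 1.90e-05). ADAM9 was higher as well (0.43 ± 0.04, adjusted p 1.65e-06) and ADAM10 lower (-0.14 ± 0.04, adjusted p 0.0110), and these 3 are the calls of this list after DHT for 24 h.

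Of the 19 adaptors and relay genes, GAB1, a docking protein of the receptors, was measured at 17.9 and 17.9 CPM in vehicle, 22.5 and 24.4 CPM after enzalutamide for 4 h, and 9.68 and 10.1 CPM after DHT for 24 h. It lay above vehicle with enzalutamide and below it after DHT for 24 h, with log2 fold changes of 0.39 ± 0.06 (adjusted p 0.00106) and -0.86 ± 0.07 (adjusted p 2.13e-07). After DHT for 4 h it was higher than vehicle (0.26 ± 0.06, adjusted p 0.0154), so its direction under DHT differed between the times. SOS2, an activator of RAS, fell after DHT for 24 h by 0.85 ± 0.06 on the log2 scale, from 40.0 and 42.3 CPM to 23.3 and 22.3 CPM. Of the 19 genes, 4 were called higher after DHT for 24 h, beside 26.9% of all genes, and 6 lower, beside 23.1%. The largest rises there were those of MAP2K1 (0.38 ± 0.04, adjusted p 1.86e-06) and HRAS (0.28 ± 0.07, adjusted p 0.00452). With siGATA2 in vehicle, 11 of the 19 were called higher, beside 24.2% of all genes, and 5 lower, beside 31.4%, with the largest rises in BRAF and GRB7, 0.77 ± 0.05 and 0.67 ± 0.06.

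Among the 14 negative regulators, LRIG1, which promotes the breakdown of the receptors, was measured at 87.9 and 96.0 CPM in vehicle, 170 and 167 CPM after DHT for 4 h, and 149 and 152 CPM after DHT for 24 h. ERRFI1, an inhibitor that binds the EGFR kinase, was measured at 38.6 and 37.4 CPM in vehicle, 69.7 and 67.9 CPM after DHT for 4 h, and 46.7 and 43.2 CPM after DHT for 24 h. Both lay above vehicle at both times, and ERRFI1 was lower at 24 h than at 4 h (-0.61 ± 0.05, adjusted p 7.07e-07). Of the 14 genes, 3 were called higher after DHT for 4 h, beside 4.66% of all genes, and 1 lower, beside 2.11%. The lower one was LRIG3 (-0.51 ± 0.06, adjusted p 0.000104). After DHT for 24 h, 4 of the 14 were called higher, beside 26.9% of all genes, and 4 lower, beside 23.1%. RNF41, a ubiquitin ligase of ERBB3, stood at 24.8, 23.7 and 24.3 RPKM in siControl cells with vehicle, 34.96, 36.5 and 38.8 with enzalutamide, and 15.7 to 16.5 RPKM over both siGATA2 groups. Enzalutamide raised RNF41 in siControl cells by 0.60 ± 0.04 on the log2 scale, and the response in siGATA2 cells differed by -0.60 ± 0.05 (adjusted p 2.51e-05). CBLB, also a ubiquitin ligase, was higher after enzalutamide for 4 h (0.40 ± 0.07) and lower after DHT for 24 h (-0.55 ± 0.07).

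Of the 10 genes taken as output of ERK, 8 were tested in the ligand experiment. After enzalutamide for 24 h, 3 of these were called higher, beside 16.4% of all genes, and 2 lower, beside 17.0%. The 3 called after DHT for 24 h were all higher, beside 26.9% of all genes. After enzalutamide for 24 h, ETV5 stood at 0.927 and 0.968 CPM against 0.297 and 0.432 CPM in vehicle, while PHLDA1 stood at 1.16 and 1.05 CPM against 2.18 and 2.01 CPM. The log2 fold changes were 1.42 ± 0.25 for ETV5 (adjusted p 0.000711) and -0.93 ± 0.16 for PHLDA1 (adjusted p 0.000826). In siControl cells PHLDA1 stood at 2.88, 2.78 and 2.57 RPKM with vehicle and 0.799, 0.793 and 0.766 with enzalutamide, and over both siGATA2 groups it stood at 0.538 to 0.688 RPKM. Its response in siGATA2 cells differed from that in siControl cells by 1.58 ± 0.12 (adjusted p 1.74e-05). DUSP4 rose after DHT, from 12.01 and 11.9 CPM in vehicle to 29.7 and 29.3 CPM at 24 h (1.30 ± 0.06, adjusted p 1.14e-09). SPRY4, the 1 list gene called for enzalutamide in siGATA2 cells, stood there at 0.915, 0.858 and 0.805 RPKM with vehicle and at 1.36, 1.33 and 1.34 with enzalutamide (0.59 ± 0.09, adjusted p 0.0185).

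For members called in at least 1 comparison of an experiment, and with group means that differed more than 2-fold in it, the genes with the most similar levels were sought by the root mean square difference of log2 levels, each gene centred on its own mean. ERBB4 (siRNA experiment), AREG and EREG (ligand experiment) also differed more than 2-fold, at few reads, and were left out as they were not called or not tested. Over the 12 siRNA libraries, ERBB2 was closest to LASP1 (0.03) and CRELD1 (0.04), against a median of 0.52 over all 20369 genes. EGF was closest to SLC3A2 and PSAT1 (0.08 each, median 0.67). In siControl cells SLC3A2 stood at 48.9, 45.4 and 47.8 RPKM with vehicle and at 97.1, 98.6 and 99.5 with enzalutamide, and it stood at 32.6 to 35.9 RPKM over the siGATA2 libraries. TGFA was closest to FZD4 (0.05) and ANO6 (0.07), against a median of 0.53, and HBEGF to LHPP and MAP1LC3A (0.08 each), against 0.45. Over the 10 ligand libraries HBEGF was closest to SDC4 (0.09) and NAPEPLD (0.10), against 0.48, and BTC to AKR1C1 (0.17) and NR5A2 (0.19), against 0.51. The 2 genes closest to HBEGF were not the same in the 2 experiments, which differ in treatments, units and genes compared.

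**Figure D5:**
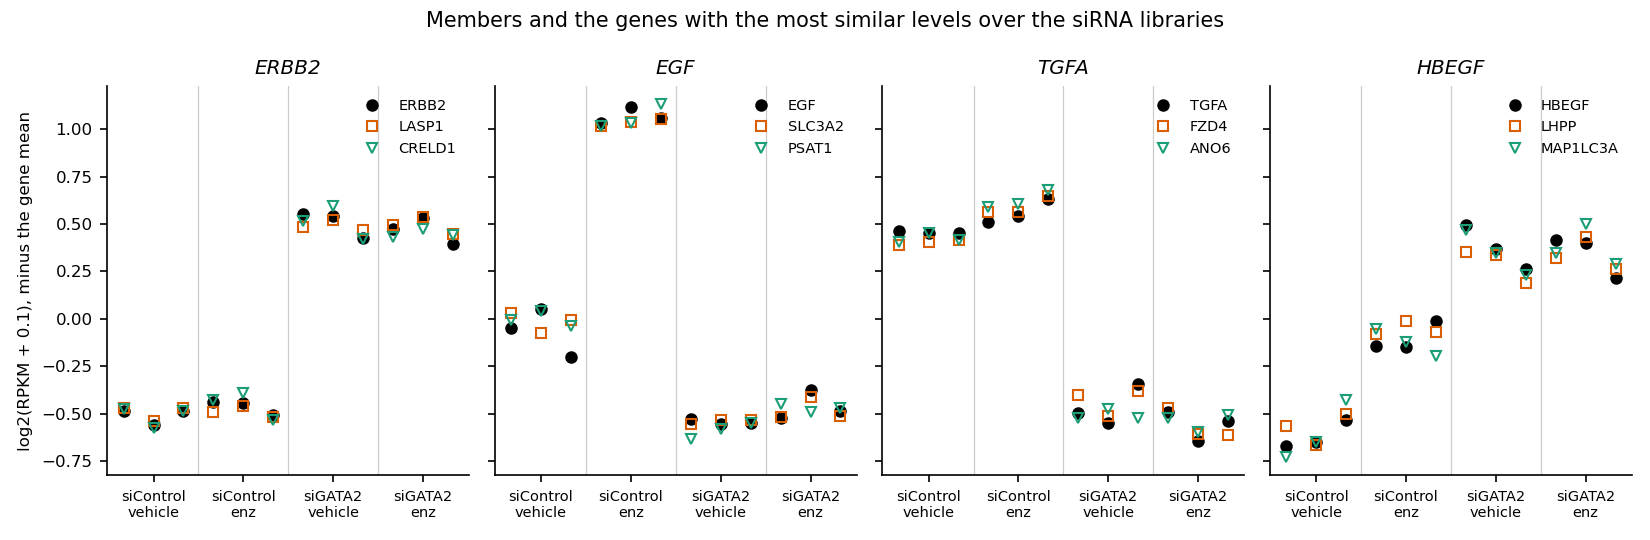
Log2 levels (y axis, log2 of RPKM + 0.1, minus the gene's mean) of ERBB2, EGF, TGFA and HBEGF and of the 2 most similar genes of each, in each of the 12 siRNA libraries (x axis, by group). The EGF panel shows SLC3A2 and PSAT1 highest in siControl cells with enzalutamide, with a root mean square difference of 0.08 from EGF.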

How the data were processed

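RNA-seq reads of LNCaP cells were, per the paper's methods, aligned by the authors with TopHat 2.0.13 and quantified in Partek Genomics Suite 6.6, and the labels name build hg19. For the ligand experiment the authors deposited estimated counts per gene, not normalized, and for the siRNA experiment RPKM, although those files are named as counts. The units were checked on the values. Ligand counts were rounded and tested in R 4.3.3 with edgeR 4.0.16 (quasi-likelihood F test, TMM factors, default filter on low counts), with 5 groups and 10 libraries in 1 model. The vehicle table has 4 columns, of which 3 carry replicate number 1. These 3 differed from each other by less than from replicate 2 (mean chi-square per gene 1.53 to 1.56 against 3.56 to 3.74). This measure also rises with depth, and replicate 2 is deeper (38894876 counts, against 18778840 to 21717301). It therefore cannot settle whether the 3 columns are runs of 1 sample. The 3 columns were summed, so n is 2 per group, although the sample titles number 4 vehicle replicates. The siRNA values entered limma 3.58.1 (trended eBayes) as log2(RPKM + 0.1), keeping genes that exceed 0 in 3 or more libraries, with 4 groups and 12 libraries in 1 model. P-values were adjusted by Benjamini-Hochberg over all genes tested in a comparison, and a gene is called higher or lower at an adjusted p below 0.05. CPM in the text are TMM-scaled, and log2 fold changes carry a standard error.

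The members, the 5 pathway lists and the rule for named genes were chosen with earlier results of these data known. The rule names all members, check genes (GATA2, KLK3 and TMPRSS2, others not reported here), and of each list at most 2 called genes per direction and comparison, by size of change. The steps were tested on simulated data. The labels number replicates, and how libraries with the same number deviated from their groups correlated at -0.204 to 0.179 in the ligand experiment and at -0.342 to 0.28 in the siRNA experiment. Only siControl and siGATA2 under enzalutamide had all 3 pairs above 0.1 (0.113, 0.241 and 0.148), and a replicate block left the count of called members at 6 there. Alternatives were DESeq2 1.42.0, RLE factors, other filters, pseudocounts of 0.01 and 1, scaling to the median, no variance trend, the replicate block, single vehicle runs, fits with the compared groups alone, and leaving out each library. After seeing the data, 2 were added: vehicle columns of the same name prefix, and crossed replicate numbers for enzalutamide at 4 h. Python 3.11.15 and matplotlib 3.10.9 made the figures.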

Additional observations from a re-analysis of the deposited data

Results flagged for a closer look

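Each of the following differences passed its own test in the model of all groups, between siRNAs or between times. The response to enzalutamide in siGATA2 cells minus that in siControl cells was -0.29 for ERBB3 (limma, adjusted p 0.000601). It was -1.05 for EGF (adjusted p 2.66e-05) and -0.55 for HBEGF (adjusted p 0.00381). The levels behind these values differed. For EGF, siGATA2 cells with vehicle had a mean of 2.23 RPKM, below the 3.16 of siControl cells with vehicle. For HBEGF (5.28 RPKM) and ERBB3 (79.3 RPKM) they already lay above siControl cells with enzalutamide (3.76 and 74.6 RPKM). Between 24 h and 4 h of enzalutamide the difference was 0.59 for EGF (edgeR, adjusted p 1.44e-05). Against the vehicle columns of the same name prefix, which differs between these times, it was 0.24 and not called (adjusted p 0.352). Between 24 h and 4 h of DHT the difference was -0.37 for ERBB2 (edgeR, adjusted p 1.35e-05) and -0.58 for TGFA (adjusted p 2.33e-05). It was -0.31 for HBEGF (adjusted p 0.0484) and 0.10 for ERBB3 (adjusted p 0.0257), both close to the threshold or small, and both not called within the prefixes, at similar or larger changes with larger standard errors (-0.39, adjusted p 0.111, and 0.10, adjusted p 0.133). Vehicle has no time label and drops out of the differences between times in the main fit. Those differences also hold whatever differs between 4 h and 24 h in culture. The causes of the differences listed here were not tested.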

How the results depend on the processing

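Over 41 alternative settings, the 104 fold changes of the members gave 2129 values. Of these, 2040 kept their side of the threshold, 45 lost a call, 44 gained one and 0 called values reversed. Some uncalled values changed sign, as for BTC with enzalutamide at 24 h against 4 h (1.17, and -0.35 within the prefixes). The count of called members after enzalutamide for 4 h, 0 in the report, was 2 with the 4 vehicle columns as separate samples, 1 with DESeq2, 1 with no filter on low counts and 1 with crossed replicate numbers. It was 1 and 2 with vehicle replicate 1 as its ZC1 or ZC2 run alone. With the vehicle columns of the same name prefix, an alternative added after seeing the data like the crossed numbers, the count was 1 in place of 4 for enzalutamide at 24 h, 0 in place of 1 for enzalutamide at 24 h against 4 h, and 1 in place of 2 for DHT against enzalutamide at 4 h. No filter on low counts gave 2 in place of 1 for enzalutamide at 24 h against 4 h. Leaving out 1 library at a time gave counts of 0 to 2 for enzalutamide at 4 h, 2 to 4 for enzalutamide at 24 h, 1 to 2 for enzalutamide at 24 h against 4 h, and 2 to 5 for DHT at 24 h against 4 h. For DHT at 24 h against 4 h, 4 in the report, the other settings gave 3 to 6, and the count of 6 came from a fit of the compared groups alone, which gained BTC, EGF and EGFR and lost HBEGF. With the replicate block, 3 calls of members differed from the report: BTC was called for DHT at 24 h against 4 h (adjusted p 0.0319) and for enzalutamide in siControl cells (adjusted p 0.0260), and HBEGF was not called for DHT at 24 h against 4 h (adjusted p 0.0613). The siRNA counts of members moved by at most 1 under every alternative tried. For enzalutamide in siControl cells, the calls over all genes were 3612 higher and 4970 lower in the main fit. With libraries scaled to the median they were 4552 higher and 4089 lower, so the balance of directions turned. A fit with the compared groups alone does not apply to the difference between responses. The causes of these shifts were not tested, and a group reduced to 1 library is assumed to vary like the others.

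With 2 libraries per ligand group, small differences are read from a spread shared by all groups. AREG, EREG, ERBB4 and BTC had at most 29 counts in a ligand library, so changes in them were hard to detect at this depth. The name prefixes of the ligand columns follow the treatment groups in part, and single vehicle columns carry the comparison within a prefix. Exact read numbers behind the RPKM values are unknown, how reads over overlapping genes were counted is not stated, and mRNA levels give no protein, release or signalling of receptors and ligands.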
